A study of Drosophila melanogaster with 4 samples.

Results

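The genes CG11878, CG10513, CG11892, CG11893, CG31098, CG31097, CG31288, CG13659, CG10550 and CG10559 are 10 neighbours on chromosome 3R of Drosophila melanogaster, followed here in poly(A) RNA from dissected testes. These 10 of the 17559 gene IDs counted were chosen from their lower levels in testes with Caf40 knocked down than in those of bam mutants, so their difference between these groups is given here as a description, with no test. All 10 carry a clade name of the ecdysteroid kinase-like (EcKL) family among their RefSeq synonyms. The label of a cluster beside bam held only loosely, because the first member started 28.7 kb from the start of bam and 14 other counted genes lay between them, 12 of them outside the family.

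The series held 4 libraries, 2 for each of 2 genotypes, each made from 150 pairs of testes dissected in batches of 50, and the study's methods include the seminal vesicle in the dissected tissue. The bam mutant males were bam1/bam86, a pair of mutant alleles of bam, and the study's methods add the balancer CyO to their genotype. They were grown at 22 °C up to mid and late pupae, exposed to 37 °C for 30 min although they carried no heat-shock construct, moved to 25 °C and dissected 48 h after that heat shock. Names of the deposited files call these libraries WT at 0 h after heat shock instead, and the groups here follow the labels. The knockdown males were Caf40RNAi(BL67987)/nosGAL4, with 1 hairpin against Caf40 driven in early germ cells by nanos-Gal4, in strains that per the study's methods also carry UAS-Dicer2. Their crosses stayed 3 days at 25 °C before a shift to 29 °C, and testes were taken from adults 0 to 2 days old. The labels of the bam mutant samples state no age. The study's methods give males 0 to 2 days old for the dissections without separating the genotypes. Genotype, strain, temperature, heat shock and sequencing depth all separated the same libraries, and their parts in any difference cannot be told apart. The members lie close to bam, so in bam mutant males the gene copies themselves came with the bam mutant chromosomes, and this too cannot be told apart from genotype. Nothing in the labels says whether the 2 libraries of a genotype came from separate cultures, so the spread between them may be technical.

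Bam is the protein that stops spermatogonia from proliferating and lets them enter differentiation, and Caf40 is the subunit of the CCR4-NOT deadenylase that Bam binds. The EcKL family is a group of insect proteins that resemble small-molecule kinases. It takes its name from the silkworm enzyme that phosphorylates ecdysteroids, the steroid hormones of moulting, into inactive conjugates. In flies many of its genes are expressed in midgut, fat body and Malpighian tubules, and some have been tied to the handling of plant toxins and other foreign compounds. No individual substrate is given here for any of the 10 members.

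The knockdown was visible in the targeted transcript. Caf40, annotated as Rcd-1 (FBgn0031047, chromosome X), was at 204 and 207 CPM (counts scaled to library totals adjusted by the trimmed mean of M-values) in mutant testes and at 13.5 and 16.2 CPM in the knockdown. The bam transcript (FBgn0000158, 3R from 25243039 to 25245109, minus strand) went the other way, with 20.8 and 20.7 CPM in the mutant and 267 and 249 CPM in the knockdown (log2 fold change 3.64 ± 0.06 SE, adjusted p 1.95e-05, quasi-likelihood test of edgeR with Benjamini-Hochberg adjustment). The study's supplement proposes that this higher bam level is likely in part because bam86 lacks most of bam's coding sequence. This was not tested here. Gene counts totalled 95125694 to 118209171 in bam mutant libraries and 26984758 to 30411385 in knockdown libraries. A count of 3, the limit that a count of 0 allows, was worth 0.0265 to 0.103 CPM. Of 10854 genes tested, 33.0% were called lower and 30.7% higher in the knockdown at an adjusted p under 0.05, so a call by itself was common. Without bam mutant replicate 1 or 2 the genes called higher fell in number from 3329 to 2057 and 1915, and scaling to germline genes gave 7133 lower and 695 higher.

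The members belong to a tandem array of 26 EcKL genes that runs from CG11889 to CHKov2 over 61.0 kb (BDGP6, 3R from 25270209 to 25331203). No counted gene from outside the family lay within the array. The members covered 42.3 kb of it, with 9 other EcKL genes interspersed among them, 4 members on the plus strand and 6 on the minus strand. They were short protein-coding genes of 1301 to 1607 exonic bases in 2 to 4 exonic blocks, and none overlapped another counted gene.

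All 10 members were lower in both knockdown libraries than in either bam mutant library. The median log2 fold change of the 10 was -3.19, beside 0.03 over all genes tested, and single members ran from -2.08 to -8.44. All 10 stood at a log2 fold change of -2 or below, which 7.34% of all tested genes did, and all 10 had groups that did not overlap in this direction, as did 42.0% of all tested genes. These counts follow from the choice of members. Summed over the 10, the level was 848 and 829 CPM in mutant testes and 66.4 and 84.0 CPM in the knockdown, 11.2-fold apart. Each member is described below along the chromosome with its counts and CPM. Where few counts limit the ratio, the ratio of pooled counts is given with a 95% interval that covers counting error only, and other folds are ratios of group means of CPM.

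**Figure D1:**
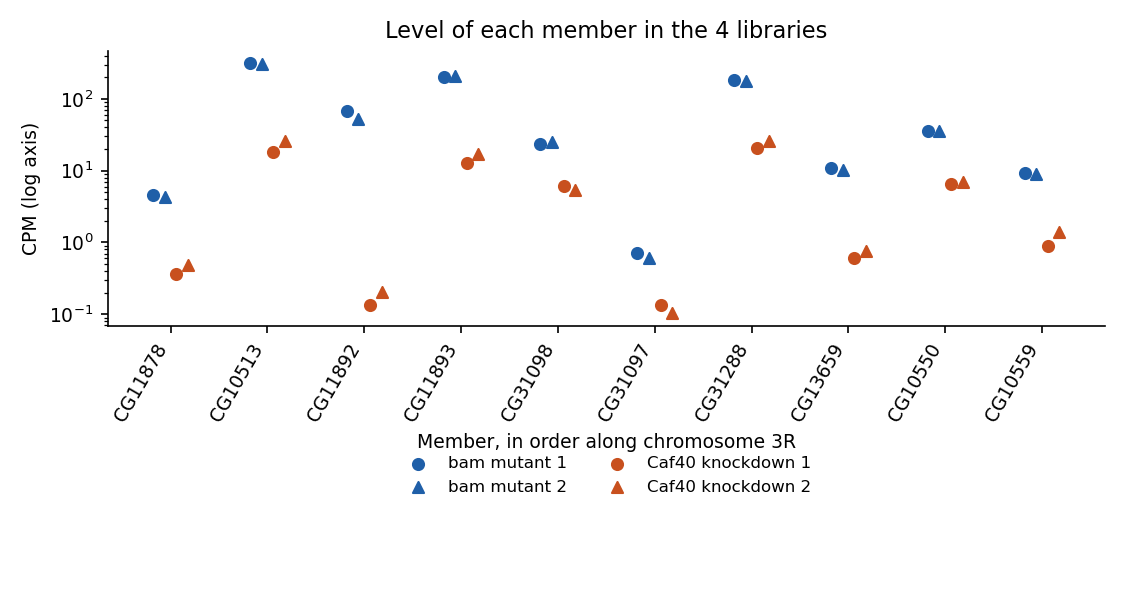
CPM of each member (log axis) in the 4 libraries, with members in order along chromosome 3R, blue for bam mutant and orange for Caf40 knockdown, circles for replicate 1 and triangles for replicate 2. Every member's blue points lie above its orange points, with the widest gap at CG11892 (67.2 and 51.9 CPM against 0.133 and 0.207 CPM).

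CG11878 (FBgn0039310, 25273837 to 25275237, plus strand) is the member nearest to bam. It had 514 and 396 counts in mutant testes and 11 and 14 in the knockdown. In CPM these were 4.54 and 4.25 against 0.366 and 0.482, a 10.4-fold lower pooled level with a counting interval from 7.01 to 16.2. Its profile over the 4 libraries was the one closest to the members' median profile, at a distance of 0.13 in log2 CPM.

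CG10513 (FBgn0039311, 25275790 to 25277212, minus strand) was the most abundant member in the bam mutant. It had 35482 and 28701 counts there, against 543 and 741 in the knockdown. The levels were 313 and 308 CPM in the mutant and 18.0 and 25.5 CPM in the knockdown, 311 ± 3.62 against 21.8 ± 5.29 (mean ± SD, n = 2 each). On the log2 scale the knockdown stood at -3.84 ± 0.16 (SE).

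CG11892 (FBgn0039313, 25281548 to 25283237, plus strand) was the member with the widest difference, from a well-measured transcript to one near the counting limit. It had 7613 and 4831 counts in mutant testes and 4 and 6 counts in the knockdown. The pooled level was 356-fold lower in the knockdown, and because this rests on so few counts the interval ran from 194 to 743. The knockdown libraries, at 0.133 and 0.207 CPM, stood just above the value of 3 counts, and the bam mutant libraries, at 67.2 and 51.9 CPM, differed from each other more than for any other member. Without it the other members lay between -2.08 and -3.95 on the log2 scale.

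CG11893 (FBgn0039316, 25289889 to 25291366, plus strand) carries the clade name Dro5-6. It stood at 203 and 206 CPM (22968 and 19233 counts) in mutant testes and at 12.9 and 17.3 CPM (389 and 502 counts) in the knockdown. The groups were 13.5-fold apart, with a log2 fold change of -3.76 ± 0.13 (SE). Its neighbour CG31098 (FBgn0051098, 25291370 to 25292977, minus strand), whose annotated end lies beside that of CG11893, showed the smallest difference of the 10. Counts of CG31098 were 2638 and 2337 against 181 and 157, or 23.3 and 25.1 CPM against 6.02 and 5.41 CPM. The knockdown kept 23.6% of the bam mutant level of CG31098, compared with 7.39% for CG11893.

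CG31097 (FBgn0051097, 25296128 to 25297778, minus strand) was barely detected. It had 82 and 57 counts in mutant testes and 4 and 3 in the knockdown, or 0.724 and 0.612 CPM against 0.133 and 0.103 CPM. The pooled ratio was 5.69 with a counting interval from 2.69 to 14.4, so its size is known only roughly. The filter on low counts asks for a sufficient level in either group. CG31097 passed it, as did all 10 members, which adds no support because members were chosen as higher in the bam mutant.

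CG31288 (FBgn0051288, 25297960 to 25299557, minus strand) was the third most abundant member in mutant testes and, per kb of exon, the first in the knockdown. Its levels were 181 and 177 CPM (20485 and 16512 counts) against 20.8 and 25.8 CPM (626 and 748 counts), 7.69-fold apart. The next gene, CG13659 (FBgn0039319, 25300891 to 25302317, plus strand, clade name Dro5-7), was at 10.7 and 10.2 CPM (1217 and 951 counts) against 0.598 and 0.758 CPM (18 and 22 counts). Its pooled ratio of 15.5 (interval 11.4 to 21.8) was the second largest among the members.

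CG10550 (FBgn0039321, 25306407 to 25308391, minus strand) had the smallest standard error of the 10. It stood at 35.4 and 35.8 CPM (4013 and 3334 counts) in mutant testes and at 6.45 and 7.03 CPM (194 and 204 counts) in the knockdown, with a log2 fold change of -2.40 ± 0.08 (SE). CG10559 (FBgn0039323, 25314494 to 25316116, minus strand), the last member, was at 9.33 and 8.96 CPM (1057 and 835 counts) against 0.897 and 1.38 CPM (27 and 40 counts). Its pooled ratio was 8.09, with an interval from 6.34 to 10.5.

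Levels of different members were compared per kb of exon. In the bam mutant CG10513 (229 CPM per kb), CG11893 (145) and CG31288 (130) led, followed by CG11892 (37.0), CG10550 (22.3), CG31098 (16.3), CG13659 (8.05), CG10559 (6.37), CG11878 (3.27) and CG31097 (0.452 CPM per kb). The highest level was 506 times the lowest, and none of the 9 pairs of neighbours in this order overlapped between libraries. In the knockdown the span was 211-fold and the order was led by CG31288 (16.9 CPM per kb) and CG10513 (16.0), whose libraries overlapped. The other 2 overlapping pairs of neighbours were CG10550 with CG31098 (4.23 and 3.84 CPM per kb) and CG11892 with CG31097 (0.106 and 0.080 CPM per kb). CG11892 moved furthest in the order, from rank 4 to rank 9. Its share of the members' summed CPM was 7.92% and 6.26% in mutant testes and 0.200% and 0.246% in the knockdown, whereas that of CG31288 was 21.3% and 21.4% against 31.3% and 30.7%.

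Between the knockdown libraries, 8 of the 10 members were higher in replicate 2 than in replicate 1. CG31098 and CG31097 were the exceptions. The largest ratio, 1.55-fold for CG11892, rests on 4 and 6 counts. CG10513 was 1.41-fold higher on 543 and 741 counts, and CG11893 1.34-fold on 389 and 502. The median log2 fold change of the members was -3.03 without knockdown replicate 1 and -3.46 without knockdown replicate 2.

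The other EcKL genes of the array were lower in part. Of the 16, 12 passed the filter, 8 were lower in the knockdown by edgeR's quasi-likelihood test (adjusted p under 0.05), none was higher, and their median log2 fold change was -1.79. The family list was drawn up with these results known, and its 8 of 12 reads against 33.0% of all tested genes called lower. CG10553 (FBgn0039324, 25316461 to 25318111, minus strand), the gene next to the last member, was the most abundant gene of the array, at 1267 and 1314 CPM in mutant testes and 86.6 and 93.4 CPM in the knockdown. Its log2 fold change was -3.84 ± 0.08 (SE, adjusted p 1.95e-05). CG10562 was at 27.8 and 30.6 CPM against 2.49 and 2.45 CPM (log2 fold change -3.56, adjusted p 2.92e-05, same test). So 4 array genes outside the chosen 10 also passed a log2 fold change of -2, the others being CG10560 (53, 37, 3 and 2 counts) and CG31087 (29, 25, 1 and 0 counts).

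Smaller decreases were found for CG10514 (31.3 and 19.6 CPM against 5.48 and 7.86 CPM), CG31104 (6.36 and 6.99 against 1.96 and 2.14 CPM) and CG31102 (8.30 and 9.67 against 2.36 and 2.55 CPM), with log2 fold changes of -1.93, -1.70 and -1.87. CHKov2 fell by 1.32 on the log2 scale (5.95 and 7.16 against 3.36 and 1.89 CPM, adjusted p 0.0156). The calls of CHKov2 and CG10560 were lost when either bam mutant library was left out. That leaves 1 library in the group, so the loss cannot be told apart from lower power. With the DESeq2 Wald test CG10560 and CG31087 had adjusted p 0.0654 and 0.0768.

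For 4 tested genes of the same array no difference was called. CG31300 (FBgn0051300, 25283620 to 25285224, plus strand), the gene after CG11892 on the same strand, was at 48.1 and 46.7 CPM in mutant testes and at 45.0 and 53.1 CPM in the knockdown. Its log2 fold change of 0.05 ± 0.09 (SE) had an adjusted p of 0.662, and scaling to germline genes turned it to -0.62. CHKov1, a gene whose natural variants in flies have been tied to virus and insecticide resistance, was at 15.6 and 16.7 CPM against 15.7 and 18.9 CPM (log2 fold change 0.10 ± 0.12 SE, adjusted p 0.502, and -0.57 with scaling to germline genes). CG31370 (2.73 and 2.16 against 3.29 and 2.89 CPM) and CG31436 (2.08 and 2.09 against 2.26 and 1.34 CPM) were not called either, though CG31436 had an adjusted p of 0.0460 and a log2 fold change of -0.68 without knockdown replicate 1. The untested genes were CG13658 (26, 14, 1 and 1 counts), CG31099 (5, 9, 1 and 38 counts) and the pair CG11889 and CG11891 next to the first member, which held at most 1 count. The annotation used here gives this pair the same coordinates and strand. If the annotation used for counting did too, their reads would count as ambiguous, so their counts may not measure their level.

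**Figure D2:**
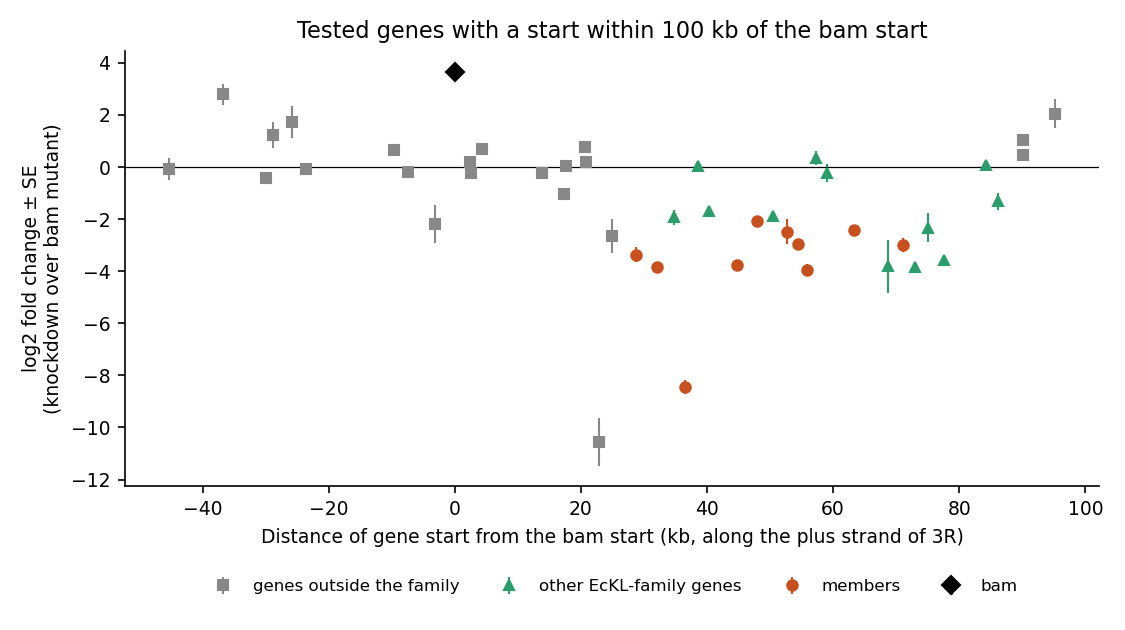
Log2 fold change of knockdown over bam mutant with its standard error for tested genes, against the distance of the gene start from the bam start in kb along the plus strand of 3R. Members (orange circles) lie from 28.7 to 71.0 kb, mixed with other EcKL genes (green triangles) that reach from -3.84 to 0.34, while genes outside the family (grey squares) have a median of 0.11 and bam (black diamond) stands at 3.64.

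Genes that share a clade name were alike in some clades and not in others. The array holds 7 genes named Dro5, the clade of the members CG11893 and CG13659. Of the other 5, CG31104 was called lower, CG31300, CG31370 and CG31436 were not called, and CG13658 was too low to test. Likewise CG10562 and CHKov1 share the clade name Dro18, with log2 fold changes of -3.56 and 0.10. In contrast CG10553 and CG10560 of Dro17 were both called lower by edgeR's test (-3.84 and -2.33), as were CG6830 and CG6834 of Dro24 (-4.47 and -3.32) and CG16898 and CG33301 of Dro26 (-3.51 and -3.55) outside the array.

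The make-up of the array also differed between the genotypes. The members supplied 37.4% and 36.3% of the array's summed CPM in mutant testes and 28.2% and 30.9% in the knockdown. CG10553 supplied 56.0% and 57.5% against 36.9% and 34.3%. CG31300, at 2.12% and 2.04% of the array in the bam mutant, made up 19.1% and 19.5% of the smaller sum in the knockdown. The summed level of the whole array was 2264 and 2285 CPM against 235 and 272 CPM.

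**Figure D3:**
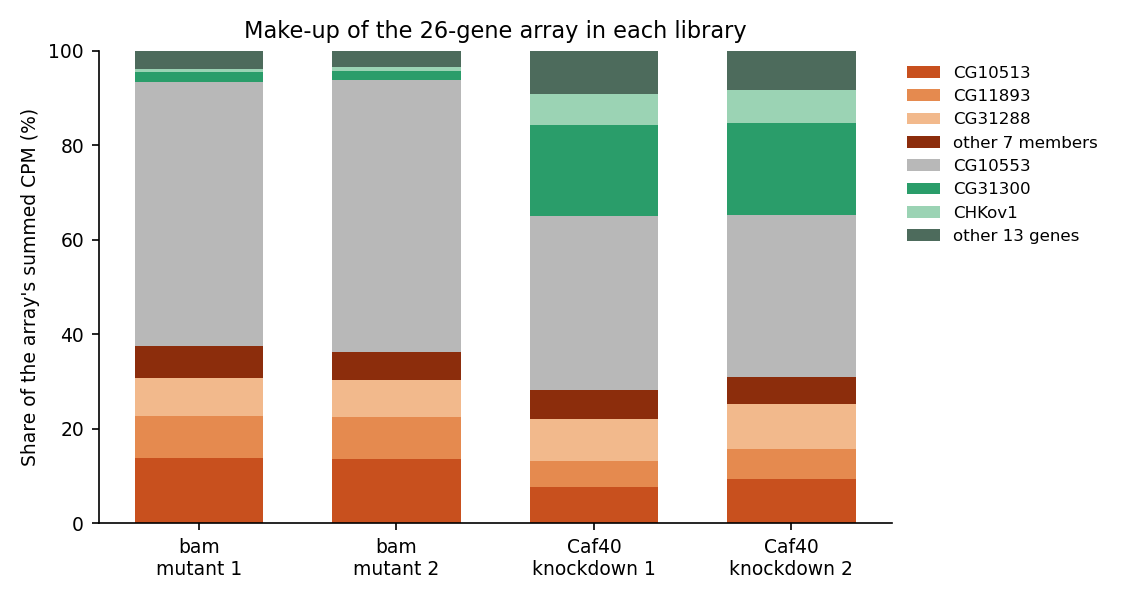
Share of the summed CPM of the 26-gene array (%, stacked to 100) in each library, with members in orange to brown shades. The members and CG10553 together take most of the bam mutant bars, while CG31300 takes 2.12% and 2.04% there and 19.1% and 19.5% in the knockdown.

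Around bam, genes outside the written family list, pseudogenes included, were called in both directions. Of 29 such genes with a start within 100 kb of the bam start, 22 were tested, 6 were called lower and 7 higher, shares close to the 33.0% and 30.7% of all tested genes, and their median log2 fold change was 0.11. The gene for glutaminyl-tRNA synthetase, GlnRS, between bam and the array, was at 98.8 and 96.9 CPM against 175 and 158 CPM (log2 fold change 0.77), and CG11902 just past the array was at 23.2 and 22.0 CPM against 45.8 and 46.4 CPM (1.03). Both were named after their values were seen. Counts for all 45 neighbours other than the members, with the other EcKL genes included, were 14 lower and 7 higher of 34 tested. Under scaling to germline genes they were 23 lower and 2 higher.

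EcKL genes elsewhere in the genome numbered 24. Of these, 19 were tested, 11 were called lower and 2 higher, against 33.0% and 30.7% of all tested genes, and the median log2 fold change was -1.96. CG6908 (FBgn0037936, 3R from 11688381 to 11690051, minus strand) had the largest difference, at 73.4 and 73.5 CPM (8312 and 6851 counts) against 0.532 and 0.551 CPM (16 and 16 counts), or -7.08 ± 0.10 (SE) on the log2 scale (adjusted p 1.95e-05). Its neighbours CG6830 (69.6 and 68.5 against 3.09 and 3.14 CPM) and CG6834 (8.84 and 8.72 against 0.897 and 0.861 CPM) had log2 fold changes of -4.47 and -3.32. The most abundant family gene outside the array was CG16898 (FBgn0034480, chromosome 2R), at 703 and 607 CPM against 57.8 and 57.5 CPM, with a log2 fold change of -3.51 ± 0.10 (SE).

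CG31380, on 3R but apart from the array, was at 238 and 239 CPM against 15.5 and 18.4 CPM, and CG33301 on 2L was at 146 and 126 CPM against 11.1 and 12.1 CPM. These are log2 fold changes of -3.82 and -3.55, within the members' range. The remaining genes past -2 were lowly expressed or moderate: CG9498 (11.7 and 13.1 against 2.36 and 1.52 CPM), CG33509 (2.62 and 2.79 against 0.332 and 0.586 CPM) and pkm (2.14 and 2.32 against 0.366 and 0.345 CPM). The call of CG33509 was lost without bam mutant replicate 2 (adjusted p 0.0505). Against this direction, CG5126 rose from 47.1 and 46.1 to 91.7 and 86.2 CPM (log2 fold change 0.93, adjusted p 0.000121) and CG14314, the other of the 2 called higher, from 22.0 and 21.1 to 47.1 and 39.0 CPM. CG2004 stood at 59.5 and 64.5 against 60.6 and 57.6 CPM with no call (-0.07 on the log2 scale, adjusted p 0.403), although scaling to germline genes gave it -0.75.

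**Figure D4:**
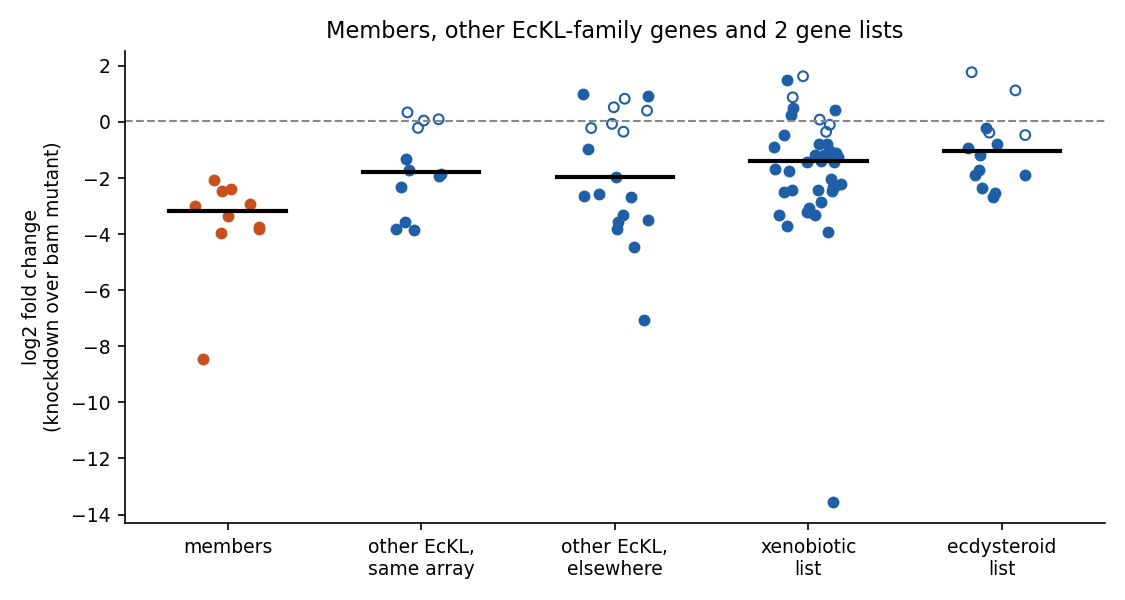
Log2 fold change of knockdown over bam mutant for tested genes of 5 sets, with black bars at each set's median and a dashed line at the median of all tested genes (0.03). Filled blue points passed the test and open ones did not, and members (orange) carry no test. Medians are -3.19 for members, -1.79 and -1.96 for other EcKL genes in the array and elsewhere, -1.40 for the xenobiotic list and -1.04 for the ecdysteroid list.

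Genes of 2 processes to which the family has been linked, the response to foreign compounds and the handling of ecdysteroids, were taken from lists also drawn up with results of these data known. The xenobiotic list holds cytochrome P450s, glutathione S-transferases and the regulators of their induction. Of its 42 tested genes, 32 were lower and 4 higher in the knockdown, against 33.0% and 30.7% of all genes. Among them 17 of 20 P450 genes were lower (median log2 fold change -2.48), as were 14 of 18 glutathione S-transferases (median -1.17). Without bam mutant replicate 2 the list held 2 higher genes. Cyp12d1-d had 2503 and 2121 counts in mutant testes and 0 in both knockdown libraries, at least 441-fold lower when 3 counts over the group are taken as the limit. Cyp12d1-d is one of a near-identical pair of genes whose reads may be split or discarded, and its partner Cyp12d1-p was at 17.5 and 16.6 against 1.63 and 1.83 CPM.

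Cyp6d5, a P450 on 3R, was at 1220 and 1125 CPM against 69.9 and 82.8 CPM (log2 fold change -3.94), and Cyp6w1 was at 22.5 and 23.2 against 1.40 and 2.07 CPM (-3.72). In the other direction, Cyp6g1, the P450 behind a well-known insecticide resistance of flies, rose from 2.14 and 2.21 to 5.38 and 6.86 CPM (log2 fold change 1.49, adjusted p 0.00267). The glutathione S-transferase gene GstD5 (0.48) and cnc (0.42), which encodes the fly Nrf2 regulator of detoxification genes, were called higher by less, and stood at -0.19 and -0.25 with scaling to germline genes. GstD5 was no longer called without bam mutant replicate 2 (adjusted p 0.111).

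The ecdysteroid list covers synthesis, transport, clearance and reception of ecdysone. Of its 14 tested genes, 10 were lower and none higher, against 33.0% and 30.7% of all tested genes, and the median log2 fold change was -1.04. With 1 library left out, 7 to 10 were lower. The gene shd (shade), whose P450 turns ecdysone into its active form, was at 4.61 and 5.05 CPM against 0.698 and 0.827 CPM (log2 fold change -2.66, adjusted p 0.000537). Oatp74D, the ecdysone importer, was at 42.4 and 46.5 CPM against 8.04 and 7.24 CPM (-2.54). The synthesis gene sro had 58 and 66 counts against 5 and 2 (-2.35, adjusted p 0.0185), and this call was lost without bam mutant replicate 1 or 2 (adjusted p 0.221 and 0.338) and its sign turned with unstranded counts (0.62). The receptor subunits EcR and usp had log2 fold changes of -0.91 and -0.23.

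Among all tested genes other than members, the 5 whose pattern over the 4 libraries lay closest to the members' median profile were Mtk, lncRNA:CR44776, Cyp9b2, Cyp6a9 and P5CS, at Euclidean distances of 0.10, 0.11, 0.11, 0.13 and 0.15 in centred log2 CPM. Mtk encodes the antimicrobial peptide Metchnikowin, Cyp9b2 and Cyp6a9 are P450s of the xenobiotic list, and P5CS acts in proline synthesis. None lies on chromosome 3R. Their levels ranged from 1.69 CPM for lncRNA:CR44776 to 174 CPM for P5CS in the bam mutant libraries and their log2 fold changes from -3.19 to -3.36. With 2 groups of 2 libraries the measure mostly ranks genes by the size of their difference. Other EcKL genes were 3 of the 100 nearest genes and 0.286% of all tested genes that are no members. The members were chosen from this difference and the family list was drawn up with results known. This share therefore adds no support for a shared pattern of the family.

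Markers of cell types in the dissected tissue also differed between the groups. In bulk tissue, fewer cells of a type and less RNA per cell cannot be told apart. Over all tested genes, 30.7% were called higher and 33.0% lower. Germline markers, present at 2096 to 2159 summed CPM in bam mutants, were at 3296 to 3663 in the knockdown, with 12 of 12 called higher. The scaling to germline genes uses these same genes, so it sets their average level equal between libraries by construction. Cyst and hub markers, of the somatic cells that enclose or anchor germ cells, were at 457 to 461 against 184 to 218 CPM, with 8 of 10 lower. All 5 hemocyte markers were lower (164 to 214 against 20.1 to 30.6 CPM), as were 7 of 9 sheath muscle markers (1424 to 1609 against 907 to 1045 CPM) and 4 of 6 of the ejaculatory duct and bulb, whose other 2 were higher (771 to 817 against 172 to 197 CPM).

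Of the lists for tissues in which EcKL genes are best known, 2 were mostly not at levels that could be tested. These were midgut (2 of 10 genes tested) and Malpighian tubule (3 of 8), whereas all 7 counted fat body markers were tested. The midgut list summed to 305 to 492 against 44.1 to 49.8 CPM, almost all of it from the amylase gene Amy-p, and the trypsins gammaTry and deltaTry were at 0 in all 4 libraries. The Malpighian tubule list summed to 280 to 287 against 50.1 to 57.7 CPM, with 3 of 3 tested genes lower, mostly from the aquaporin gene Drip, while the tubule-defining Uro had 1 and 2 counts in mutant testes and 0 in the knockdown. Fat body markers were at 192 to 220 against 150 to 159 CPM, with 2 higher and 2 lower of 7. Accessory gland markers, at 2.54 to 9.67 CPM in bam mutants, were at 391 and 46.0 CPM in knockdown replicates 1 and 2. Of these, 11 of 11 tested were called higher, against 30.7% of all tested genes. Spermatid markers, at 9.23 to 10.7 CPM in bam mutants, were at 4.25 and 135 CPM in the same order, with 1 of 9 tested called higher. The part of these cell types in the members' difference was not tested.

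**Figure D5:**
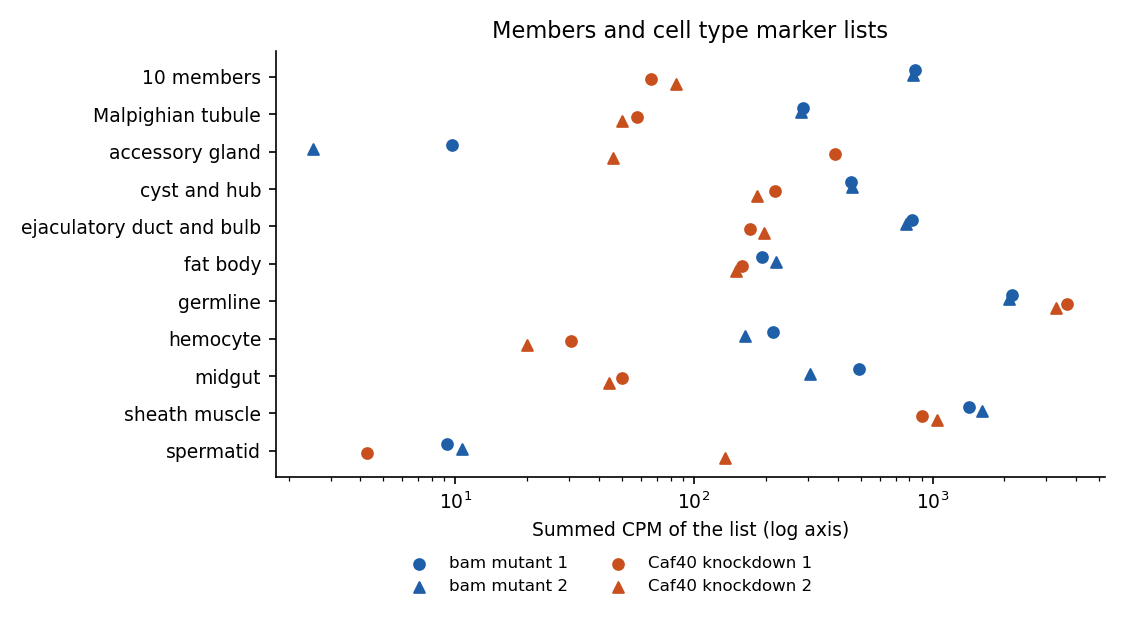
Summed CPM (log axis) of the 10 members and of each marker list in the 4 libraries, blue for bam mutant and orange for Caf40 knockdown, circles for replicate 1 and triangles for replicate 2. The members' sum stands at 848 and 829 CPM against 66.4 and 84.0 CPM, several somatic lists are also lower in the knockdown, and the germline list stands there at 3663 and 3296 CPM.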

How the data were processed

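Per the labels, poly(A) RNA was selected and turned into strand-specific libraries with a NEBNext Ultra II Directional kit. The authors trimmed reads with Trim Galore and aligned them to dm6 (BDGP6) with STAR, and the deposited files hold STAR's raw read counts per gene, unstranded and for each strand. Tool versions and the annotation used for counting are not given in the sources used here. Counts from the strand that such a kit reads were used, since the opposite strand held 2.47% to 2.54% of stranded counts. STAR's summary rows, which name no gene (26.9% to 30.8% of each library), were left out. Multimapping reads (1.84% to 2.65%) were not counted, so similar EcKL copies may have lost reads. Names of the deposited files call the bam mutant libraries WT at 0 h after heat shock, whereas their labels state bam1/bam86 and 48 h, and the labels were followed. The authors also deposited a table of normalised counts, whose 4 per-sample columns were not used, and a DESeq2 table of their own fold changes and p-values, also not used.

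Counts were fitted in R 4.3.3 with edgeR 4.0.16 (filterByExpr, TMM scaling, glmQLFit, glmQLFTest, two-sided, group only, Benjamini-Hochberg over 10854 genes, called at 0.05), and DESeq2 1.42.0 served as an alternative. The script was tested on simulated data at 2 libraries a group. With 2 groups of 2 libraries the p-values rely on a spread shared across genes. Log2 fold changes are knockdown over bam mutant. Standard errors are the fold change over the square root of its F statistic. Replicates differed beyond sampling noise. Counting intervals are exact, cover counting error only and have a level of 95%.

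Coordinates and exon lengths came from the Ensembl release 115 annotation of BDGP6 and matched 17253 of 17559 IDs, and clade names from RefSeq synonyms. The EcKL family was the written list of 40 other genes, and genes called outside the family are those not on it. Pseudogenes were not searched for likeness to the family. A protein search for the family and a promoter motif search were not run, because no sequence table was used here, and no sequences are printed. Members and lists were chosen with earlier results of these data known. Genes named are the members, bam, Caf40, EcKL genes in the array, the genes beside the members' span, EcKL genes elsewhere called at an absolute log2 fold change of at least 2 or among the 5 most abundant, the 3 most changed called genes in each direction of the xenobiotic and ecdysteroid lists, and the 5 nearest patterns. Others (GlnRS, CG11902, EcR, usp, Cyp12d1-p, CG14314, CG13360, CR43310, the untested EcKL genes and single markers) were named after their values were seen. Listed symbols Cyp6a21, nvd, vas, wupA, FASN1 and PPO1 matched no counted ID.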

Additional observations from a re-analysis of the deposited data

How the results depend on the processing

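The members' median log2 fold change of -3.19 kept its sign under all 14 alternatives, and no member changed sign in any fit it entered. Because members were chosen as lower by a wide margin in these same libraries, a kept sign adds no support. The median was -3.85 with scaling to germline genes, -3.03 with upper quartile scaling and -3.33 with no filter beyond 1 count, and from -3.46 to -3.03 with 1 library left out. Scaling to germline genes shifted the median of all genes by -0.68, upper quartile scaling shifted it by 0.15, and the members' values moved with these shifts. Of 138 values for single members under alternatives, 109 moved by less than the spread between replicates and 29 by more.

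Scaling to germline genes gave 7133 genes lower and 695 higher over all genes (3583 and 3329 by TMM), 23 lower and 2 higher around bam (14 and 7), 1 higher on the xenobiotic list and a median of -2.54 for other EcKL genes. It also turned the sign of CG31300 (-0.62), CHKov1 (-0.57), GstD5 (-0.19) and cnc (-0.25), while unstranded counts turned that of sro (0.62). Upper quartile scaling gave -1.72 for the median of other EcKL genes. Around bam, 11 genes were higher with at least 10 counts in every library, 8 were lower and 4 higher within 50 kb, and 14 were higher within 200 kb. The narrower and wider windows hold other numbers of genes, so their counts do not compare directly with those within 100 kb. With 1 library left out, the calls over all genes ran from 3068 to 4233 lower and 1915 to 4042 higher, around bam from 8 to 15 lower and 5 to 10 higher, on the xenobiotic list from 28 to 34 lower and 2 to 6 higher, on the ecdysteroid list from 7 to 10 lower and 0 to 1 higher, and among other EcKL genes from 14 to 21 lower and 2 to 3 higher, with a median from -1.90 to -1.74. Each fit with 1 library left out has 1 library in a group, where a lost call cannot be told apart from lower power. The cause of these changes was not tested.

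Replicate numbers are shared between groups, but nothing ties equal numbers to one batch, and over 2 pairs the deviations of equal numbers correlated at 0.26 across genes. With the replicate number as a block, 3534 genes were lower and 3258 higher, the members' median was -3.20, and none of 49 named values changed call. Taking the family from RefSeq clade names, an alternative chosen after seeing the data, added CG13360 and gave 20 lower and 2 higher. The protein search with a stricter limit was not run. CG11892, CG31097 and CG11878 had 3 to 14 counts in each knockdown library, which limits their fold changes.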

Other observations

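Between bam and the array, the pseudogene CR43310 had 416 and 186 counts in the bam mutant libraries and 0 in both knockdown libraries, at least 57.5-fold lower with 3 counts over the group as the limit. It was singled out after its values were seen. No other gene off the written EcKL list in this neighbourhood had a log2 fold change below -3. Whether this pseudogene is related to the EcKL genes was not tested.

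CG31099, an EcKL gene within the members' span, had 1 count in knockdown replicate 1 and 38 in replicate 2, and 5 and 9 in the bam mutant. Summed spermatid markers were at 4.25 CPM in knockdown replicate 1 and at 135 CPM in replicate 2. Whether these go together was not tested.

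Reads on the strand opposite to CG11892 numbered 84 and 55 in mutant testes and 2 and 4 in the knockdown, and opposite to CG11893 140 and 129 against 5 and 5. In mutant testes these were 1.09% and 1.13% of stranded counts at CG11892, and 0.606% and 0.666% at CG11893. Over all genes the bam mutant libraries held 2.50% and 2.54%. At CG11892 in the knockdown the share was 33.3% and 40.0%, of very few reads. CG31097 had the highest share in mutant testes, 8.89% and 13.6%. No member had opposite-strand reads at a higher level in both knockdown libraries than in the bam mutant with more than 3 counts.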
